A study of Mus musculus with 21 samples.

Results

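Genes with a part in the remodelling of the proteome or in the last steps of red cell maturation, 10 in all, were taken by symbol from the expression tables of a differentiation series, Ube2o, Ube2h, Maea, Rmnd5a, Ranbp10, Trim58, Trim10, Rnf123, Ypel4 and Tmcc2. All 10 were found among the 22483 genes listed, and all 10 were among the 12360 genes with enough counts to be tested. The cells were MEDEP cells of the BRC5 line, erythroid progenitors that were made from mouse embryonic stem cells and grow in culture as 1 line. They grew with stem cell factor (SCF) and dexamethasone (dex), and differentiation began when both were removed and 4 U/ml erythropoietin (Epo) was added. Polyadenylated RNA was sequenced at 0 h, in growth medium, and at 12, 24, 36, 48 and 72 h of differentiation. A further 12 h group differentiated in Epo plus succinyl acetone (SA), a blocker of heme synthesis. The labels give 1 protocol for all samples, with no separate Epo dose and no SA dose for this group. Each of these 7 groups held 3 biological replicates per the design text, 21 libraries in all. Nothing says which culture a replicate came from, so p-values measure the spread between these libraries.

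Ubiquitin is attached to proteins through a chain of activating (E1), conjugating (E2) and ligating (E3) enzymes, and most proteins marked in this way are destroyed by the proteasome. A maturing erythroblast discards its ribosomes, organelles and nucleus and keeps a cytoplasm filled with hemoglobin. UBE2O, a conjugating enzyme that also acts as its own ligase, marks ribosomal proteins and unassembled globin in reticulocytes. UBE2H is the conjugating enzyme that works with the CTLH complex, a ligase with several subunits in which MAEA and RMND5A form the RING core and RANBP10 is a scaffold protein related to RANBP9. TRIM58 and TRIM10 are RING proteins of the TRIM family: TRIM58 binds and degrades dynein and promotes enucleation in mouse erythroblasts, and TRIM10 is needed for terminal differentiation of a mouse erythroleukemia line. RNF123 is the catalytic subunit of the KPC ligase, which acts on the cell cycle inhibitor p27. YPEL4 belongs to the small Yippee family of zinc-binding proteins, and TMCC2 is a membrane protein with coiled coils.

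Levels are given as transcripts-per-million (TPM), a per-length share of a library, for each library in the order of replicates 1, 2 and 3. Log2 changes are given with their standard error on estimated counts scaled by TMM, which sets the middle of the tested genes near 0, and the adjusted p-values beside them come from the quasi-likelihood test of edgeR with Benjamini-Hochberg adjustment over 12360 genes (n = 3 against 3, threshold 0.05, 2-sided). The scale matters here, as the median changes given next show. Globin transcripts took 79.9 to 89.2% of TPM at 72 h and 0.127 to 0.203% at 0 h. As a share of estimated counts they took 31.66 to 37.05% at 72 h and 0.0467 to 0.0752% at 0 h. How much of the difference between scales globin accounts for was not tested. On log2(TPM + 1) the median change of all genes was -1.84 for 36 h over 24 h and -3.26 for 72 h over 0 h, and on total counts it was -1.03 and -1.94. A rise on the TMM scale is therefore a rise relative to other genes, and in bulk RNA fewer cells of a type and less RNA per cell cannot be told apart. At 36 h against 24 h 4219 genes were higher and 4825 lower on the TMM scale, against 1718 and 7851 on total counts and 410 and 8486 of 9525 genes on log2(TPM + 1). At 72 h against 0 h the TMM scale gave 5354 higher and 5748 lower, total counts 2667 and 8251, and log2(TPM + 1) 501 and 8661 of 9525. The split also moved for 24 h against 12 h (2358 higher and 2721 lower on TMM, 1109 and 4541 on total counts, 602 and 4286 on log2(TPM + 1)), for 48 h against 36 h (2476 and 3677, 1135 and 5469, 246 and 5954, and 3197 and 2961 with the size factors of DESeq2) and for 72 h against 48 h (3058 and 4264, 2134 and 5088, 437 and 5651). Ratios of 2 genes within a library do not depend on the scale. They, and the shares of a gene family, were chosen after the data were seen and carry no test.

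The libraries held 16.7 to 39.3 M estimated counts. The defining erythroid genes Epor, Klf1, Gata1, Slc4a1 and Alas2 were detected in every group. Slc4a1, the anion exchanger of the red cell membrane, averaged 2241 ± 41.5 TPM at 36 h and 6.29 ± 0.656 TPM at 0 h (SD, n = 3 each), and Klf1, an erythroid transcription factor, 66.7 ± 11.2 TPM at 36 h and 115 ± 3.81 TPM at 0 h. Replicate 3 at 48 h and at 72 h had the lowest globin share of TPM in its group, 69.9 and 79.9%. In both groups it had the highest TPM of every gene described here other than Maea at 72 h. As a share of estimated counts, globin in replicate 3 was the lowest of its group at 48 h but the highest at 72 h. The low globin share of replicate 3 at 72 h thus held on TPM only. Summed over 7 stromal markers, replicate 1 at 36 h had 2.60 TPM and the other 36 h libraries 0.0189 and 0.0792 TPM. Macrophage markers summed to at most 2.32 TPM and lymphocyte markers to at most 0.144 TPM in any library, with Nkg7 at 0 in all 7 groups. Pluripotent stem cell markers summed to at most 0.476 TPM, with Sox2 at 0 throughout. Megakaryocyte and platelet markers (5 genes) summed to 142 to 158 TPM at 36 h and 12.8 to 16.1 TPM at 0 h, with Ppbp at 0 in every group and Pf4 at 0 up to 12 h. Most of the 36 h sum was Itga2b, which averaged 128 TPM there and 9.66 TPM at 0 h. Gp9 averaged 21.3 TPM at 36 h and 1.44 TPM at 0 h, and Gp1ba 2.70 and 3.04 TPM. Mast cell markers (5 genes) summed to 1.27 to 1.96 TPM at 36 h and 16.4 to 22.7 TPM at 0 h, with Mcpt8 at 0 throughout. The part of these marker levels in the results was not tested.

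**Figure D1:**
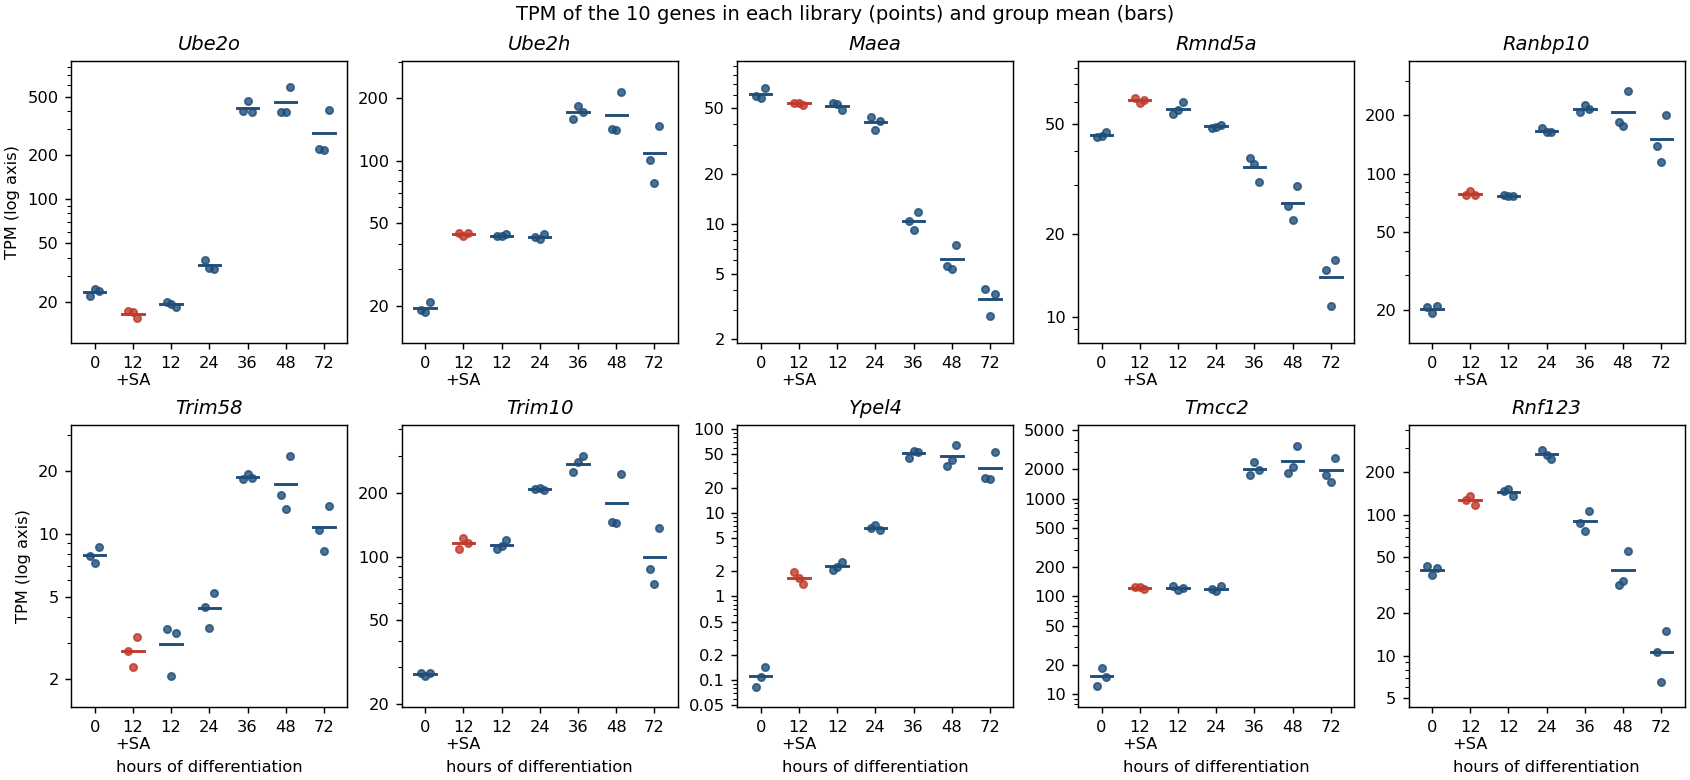
TPM on a log axis of each of the 10 genes in every library (points, 3 a group, replicates 1 to 3 from left to right) with the group mean (bars), over hours of differentiation and with the 12 h libraries given SA in red to the left of the other 12 h libraries. Tmcc2, Ube2o, Ypel4, Trim58 and Ube2h climb between 24 and 36 h, Rnf123 is highest at 24 h, at 251 to 287 TPM, and Maea falls to 2.77 to 4.02 TPM at 72 h.

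On the TMM scale most of the set rose in the first 12 h and again between 24 and 36 h. Against 0 h, 7 of the 10 were higher at 12 h and 1 was lower, where 25.3% of all tested genes were higher and 27.6% lower. Against 12 h, 6 were higher at 24 h and 0 lower, where 19.1% of all tested genes were higher and 22% lower, and by an unadjusted p under 0.05 the count lower was also 0, by DESeq2 0 and by limma on log2(TPM + 1) 1. Against 24 h, 9 were higher at 36 h and 0 lower, where 34.1% of all tested genes were higher and 39% lower, and the count lower was 0 by an unadjusted p and by DESeq2, 2 on total counts and 3 on log2(TPM + 1). The count higher was 8 on total counts and 6 on log2(TPM + 1). The median change of the 10 genes at this step was 3.28 on the TMM scale, beside -0.03 for all genes, and 1.14 on log2(TPM + 1), where their median at 12 h over 0 h was 1.35. On the TMM scale the 36 h step was the largest of the 5 for 8 of the 10, the exceptions being Maea and Rnf123. For Ranbp10 and Trim10 the 12 h step was larger on the other scales. On log2(TPM + 1) Ranbp10 was at 1.88 at 12 h and 0.37 at 36 h. On the same scale Trim10 was at 1.99 at 12 h and 0.39 at 36 h. Rmnd5a was there at -0.49 at 36 h, and its largest step was -0.85 at 72 h against 48 h.

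The later steps were smaller. Against 36 h, 6 of the 10 were higher and 1 lower at 48 h, where 20% of all tested genes were higher and 29.7% lower, and on log2(TPM + 1) 0 were higher and 4 lower. Against 48 h, 2 were higher and 1 lower at 72 h, where 24.7% of all tested genes were higher and 34.5% lower, and on log2(TPM + 1) 0 were higher and 9 lower. By 72 h 9 of the 10 were higher at 72 h than at 0 h and 1 was lower, where 43.3% of all tested genes were higher and 46.5% lower. Of these 9, Ube2o, Ube2h, Ranbp10, Trim10, Ypel4 and Tmcc2 were also called higher on log2(TPM + 1), where Trim58 did not pass and Rmnd5a and Rnf123 were called lower. Successive steps share the group between them, and 12 h against 0 h and 72 h against 0 h share the 0 h libraries.

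**Figure D2:**
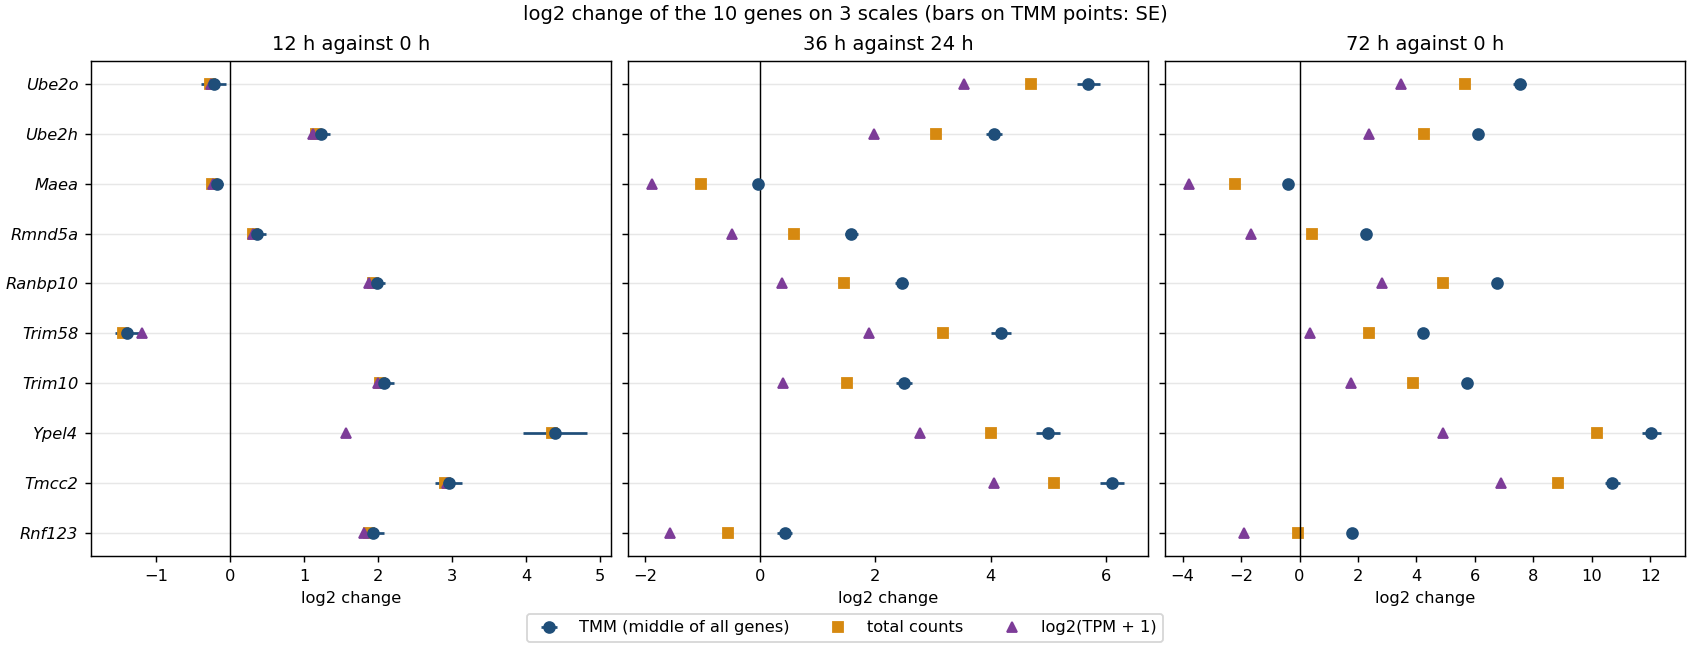
Log2 change of each gene in 3 panels (12 h over 0 h, 36 h over 24 h, 72 h over 0 h) on 3 scales, TMM with its standard error (circles), total counts (squares) and log2(TPM + 1) (triangles), with a line at 0. At 12 h the scales lie close together except for Ypel4, whose level at 0 h is far below the pseudocount of 1 TPM. At 36 h and 72 h the scales spread, so that Rmnd5a, Rnf123 and Maea change sign or size with the scale. In both of these panels Tmcc2, Ube2o, Ypel4, Ube2h, Ranbp10, Trim10 and Trim58 stay above 0 on all 3 scales.

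The stretch before the transcript start is shown for 4 genes that were higher at 36 h than at 24 h, as RefSeq (GRCm38.p6) gives it. Windows for 7 of the 10 genes were found, 10 windows in all, and none of Ube2o, Maea or Ranbp10 was among them. Each is the 250 bases before the start, 5′ to 3′ on the gene's strand. Capitals mark the GATA words AGATAA, the variant AGATAG, the variant TGATAA and the variant TGATAG, and the Krüppel-like factor (KLF) pattern CCNCNCCCN, searched on both strands. Matches of the KLF pattern may overlap each other, as in the Ube2h window shown, and GATA and KLF matches lie apart in the only window shown that holds both. The 2 Tmcc2 windows shown belong to its outermost start and to a start inside the gene. A further Tmcc2 window, chr1:132390319-132390568, held 0 GATA words and 0 KLF matches. The bases after its start open a GENCODE M21 transcript of the gene, and those after the 2 starts shown lie in none. A further Ube2h window, chr6:30243804-30244053, held 1 GATA word, 204 bases before its start, and 1 KLF match.
Trim58, chr11:58640215-58640464, plus strand: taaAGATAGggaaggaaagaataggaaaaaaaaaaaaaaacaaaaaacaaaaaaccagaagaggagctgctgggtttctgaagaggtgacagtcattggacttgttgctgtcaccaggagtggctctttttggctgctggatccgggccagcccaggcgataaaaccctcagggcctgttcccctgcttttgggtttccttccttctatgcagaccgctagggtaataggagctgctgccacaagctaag
Trim10, chr17:36869324-36869573, plus strand: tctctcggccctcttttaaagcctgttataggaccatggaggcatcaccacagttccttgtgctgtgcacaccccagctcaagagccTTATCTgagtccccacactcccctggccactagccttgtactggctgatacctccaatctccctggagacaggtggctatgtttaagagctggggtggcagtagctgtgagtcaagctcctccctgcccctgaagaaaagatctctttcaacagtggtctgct
Ube2h, chr6:30304540-30304789, minus strand: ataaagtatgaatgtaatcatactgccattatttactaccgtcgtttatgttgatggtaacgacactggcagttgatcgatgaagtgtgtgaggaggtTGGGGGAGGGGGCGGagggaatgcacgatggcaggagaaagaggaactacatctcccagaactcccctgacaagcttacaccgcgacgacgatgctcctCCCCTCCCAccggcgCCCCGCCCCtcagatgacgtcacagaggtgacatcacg
Tmcc2, outermost start, chr1:132391387-132391636, minus strand: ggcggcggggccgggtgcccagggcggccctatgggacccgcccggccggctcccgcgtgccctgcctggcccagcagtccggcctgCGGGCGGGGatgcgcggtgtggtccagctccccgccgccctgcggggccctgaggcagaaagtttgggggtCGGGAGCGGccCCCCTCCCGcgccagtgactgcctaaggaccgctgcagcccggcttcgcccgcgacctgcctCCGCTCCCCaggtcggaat
Tmcc2, inner start, chr1:132367949-132368198, minus strand: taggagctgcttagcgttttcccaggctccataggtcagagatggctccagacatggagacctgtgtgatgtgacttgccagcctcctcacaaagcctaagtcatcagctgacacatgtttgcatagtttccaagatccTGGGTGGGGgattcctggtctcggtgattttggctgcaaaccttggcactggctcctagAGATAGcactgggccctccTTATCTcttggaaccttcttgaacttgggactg
A GATA word stood 247 bases before the start of Trim58 and 163 before that of Trim10, and 2 stood before the inner start of Tmcc2, at 52 and 33 bases. The outermost Tmcc2 window held 4 KLF matches and was 78% G or C, the Ube2h window shown held 5, and those of the TRIM genes held no KLF match. Over all 10 windows of the set a GATA word was in 4 and a KLF match in 6, against 26.5% and 45.8% of all 32851 windows, and 18.7% and 60.5% of the windows of tested genes. These are matches of letters, and no data on factor binding were used.

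Ube2o lay low through the first day and then became the most abundant conjugating enzyme transcript. The gene (ENSMUSG00000020802.8, GRCm38 chromosome 11, 116537740 to 116581447, minus strand) had 21.8, 24.3 and 23.9 TPM at 0 h, 19.96, 19.4 and 18.5 TPM at 12 h and 38.6, 34.1 and 33.7 TPM at 24 h. It had 399.7, 467 and 396 TPM at 36 h, 395, 393 and 584 TPM at 48 h and 222, 218 and 405 TPM at 72 h. No library from 36 h on overlapped an earlier one, and the groups from 36 h on overlapped each other. The change at 12 h against 0 h was -0.22 ± 0.16 and did not pass (adjusted p = 0.282). Ube2o rose by 1.19 ± 0.17 at 24 h against 12 h (adjusted p = 8.91e-06) and by 5.70 ± 0.20 at 36 h against 24 h (adjusted p = 3.07e-15), a step larger than that of 99.3% of tested genes. On total counts the 36 h change was 4.69 and on log2(TPM + 1) 3.53, both called. At 48 h against 36 h it was 0.78 ± 0.16 (adjusted p = 4.72e-04), and on log2(TPM + 1) 0.10, which was not called.

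Among 37 genes of the E2 family Ube2o took 0.576 ± 0.0282% of the summed TPM at 0 h (mean ± SD, n = 3 here and in every share), 0.798 ± 0.0695% at 24 h and 18.5 ± 1.90% at 36 h. At 48 h its share was 23.5 ± 0.792%, and it ranked first of the 37 from 36 h on and 30 at 0 h, where Ube2d3, a conjugating enzyme of broad use, led with 13.8 ± 0.355%. Ube2c, the mitotic conjugating enzyme of the anaphase promoting complex, held 0.412 ± 0.0858% at 72 h and 15.9 ± 0.759% at 24 h, when it led the family.

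Ube2h had its largest steps at 12 h and at 36 h. The gene (ENSMUSG00000039159.16, chromosome 6, 30211289 to 30304539, minus strand) had 19.1, 18.7 and 20.9 TPM at 0 h, 43.4, 43.4 and 44.2 TPM at 12 h and 42.8, 42.3 and 44.5 TPM at 24 h. The 12 h and 24 h libraries overlapped, and all were above the 0 h libraries. It had 159, 185 and 172 TPM at 36 h, 143, 141 and 215 TPM at 48 h and 101, 77.9 and 147 TPM at 72 h. Ube2h rose by 1.22 ± 0.12 at 12 h against 0 h (adjusted p = 5.34e-08) and by 4.06 ± 0.14 at 36 h against 24 h (adjusted p = 2.21e-15), with 1.97 for the 36 h step on log2(TPM + 1). At 48 h against 36 h it was higher by 0.57 ± 0.12 (adjusted p = 5.49e-04) and by 0.26 on total counts. It was at -0.074 on log2(TPM + 1), not called. Ube2o was at 1.20 ± 0.0931 times the TPM of Ube2h at 0 h, at 0.441 ± 0.0214 times at 12 h and at 2.45 ± 0.123 times at 36 h, so within the libraries the order of these conjugating enzymes turned between 0 and 12 h and again between 24 and 36 h.

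The other E2 enzymes split evenly on the TMM scale only. Of 35 others 31 were tested, and at 36 h against 24 h 12 were higher and 12 lower, with a median of -0.03 beside -0.03 for all genes. On other scales 5 were higher and 25 lower on total counts and 2 higher and 26 lower of 30 on log2(TPM + 1). The called genes with the largest changes were Ube2b, the RAD6 homolog, at 3.75 ± 0.14, Ube2f, an enzyme for the ubiquitin-like protein NEDD8, at 3.07 ± 0.11, Ube2e1 at -2.50 ± 0.14, and Ube2q2 at -1.29 ± 0.11. All 4 kept their direction on total counts and on log2(TPM + 1). Of the ubiquitin genes Ubb, which codes for a chain of ubiquitin units, rose by 2.96 ± 0.12 and averaged 1466 TPM at 36 h and 757 TPM at 24 h. Rps27a, whose product joins ubiquitin to a ribosomal protein, was lower at -0.69. Of the 9 activating enzymes 3 were higher and 4 lower on the TMM scale, 1 and 6 on total counts and 0 and 8 on log2(TPM + 1). TMM values ran from Uba7, which serves the ubiquitin-like protein ISG15, at 1.69 ± 0.17 to Uba2, which serves SUMO, at -1.78 ± 0.10. Uba7 was at -0.38 on log2(TPM + 1), where it was not called.

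**Figure D3:**
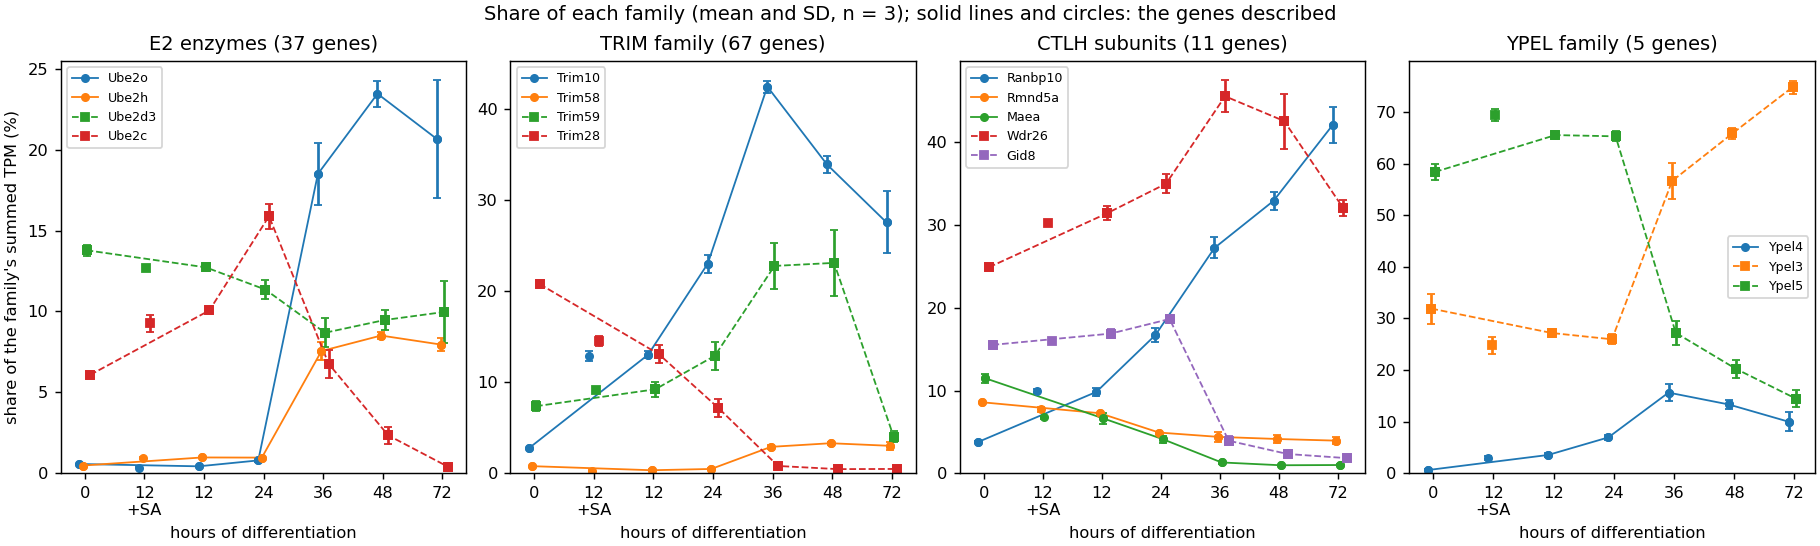
Share of a family's summed TPM taken by single genes (mean and SD, n = 3) over hours of differentiation in 4 families, with the genes described here as circles on solid lines, other genes as squares on dashed lines, and the libraries with SA as unconnected points to the left of the other 12 h libraries. Ube2o passes every other E2 enzyme by 36 h at 18.5%, Trim10 reaches 42.5% of TRIM transcripts at 36 h, Ranbp10 reaches 42.0% of CTLH transcripts at 72 h, and Ypel4 stays below Ypel3.

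The 3 CTLH subunits of the set behaved differently from each other. Ranbp10 (ENSMUSG00000037415.6, chromosome 8, 105768308 to 105827350, minus strand) climbed at every early step. It had 20.6, 19.1 and 20.8 TPM at 0 h, 77.4, 76.8 and 77.1 TPM at 12 h, 171, 164 and 163 TPM at 24 h and 207, 225 and 216 TPM at 36 h. The groups up to 36 h did not overlap. At 48 h it had 185, 175 and 266 TPM and at 72 h 139, 114 and 199.6 TPM. The rises were 1.98 ± 0.12 at 12 h against 0 h (adjusted p = 1.68e-11), 1.42 ± 0.12 at 24 h against 12 h (adjusted p = 1.16e-08) and 2.46 ± 0.12 at 36 h against 24 h (adjusted p = 2.91e-13), the last at 0.37 on log2(TPM + 1), called there (adjusted p = 0.0478 by limma) but not with a pseudocount of 0.1 or without the TPM filter (adjusted p = 0.0508 and 0.0530). At 72 h against 48 h the change of 0.31 ± 0.11 passed (adjusted p = 0.0247), but not without replicate 1 or 3 at 48 h or replicate 2 or 3 at 72 h, where the adjusted p was 0.0600, 0.0790, 0.150 and 0.145, and on log2(TPM + 1) Ranbp10 was called lower, at -0.48.

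Maea stayed with the middle of all genes. This subunit (ENSMUSG00000079562.6, chromosome 5, 33335509 to 33373296, plus strand) had 59.2, 58.0 and 65.9 TPM at 0 h, 53.9, 52.8 and 49.0 TPM at 12 h and 44.3, 37.1 and 42.1 TPM at 24 h. It had 10.4, 9.16 and 11.8 TPM at 36 h, 5.54, 5.36 and 7.49 TPM at 48 h and 4.02, 2.77 and 3.76 TPM at 72 h. Its TPM was thus lower at each later time, while its rank among the 22483 genes stayed between 2401 and 3248 in the libraries of the time course. On the TMM scale the change at 36 h against 24 h was -0.03 ± 0.08 (adjusted p = 0.726), and on log2(TPM + 1) it was -1.89 and called. Over the whole course the value was -0.38 ± 0.08 (adjusted p = 1.87e-04), and with the size factors of DESeq2 it was -0.12 and not called.

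Rmnd5a, the RING partner of MAEA, was highest in TPM at 12 h, and at 36 h it was higher relative to other genes but lower in TPM. It (ENSMUSG00000002222.14, chromosome 6, 71388634 to 71440637, minus strand) had 44.9, 45.2 and 46.9 TPM at 0 h, 54.4, 56.1 and 60.4 TPM at 12 h and 48.6, 48.9 and 49.8 TPM at 24 h. It had 37.8, 35.9 and 30.8 TPM at 36 h, 25.2, 22.5 and 29.9 TPM at 48 h and 14.8, 10.9 and 16.1 TPM at 72 h. From 24 h on each group lay below the one before it without overlap. On the TMM scale Rmnd5a was higher by 0.37 ± 0.11 at 12 h against 0 h (adjusted p = 0.00769) and by 1.58 ± 0.11 at 36 h against 24 h (adjusted p = 9.98e-11), while on log2(TPM + 1) the 36 h value was -0.49 and called lower.

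Within a library the ratios between the transcripts of the subunits shifted. Ranbp10 stood at 0.331 ± 0.0159 times the TPM of Maea at 0 h, 4.06 ± 0.325 times at 24 h, 20.9 ± 3.26 times at 36 h and 43.0 ± 9.32 times at 72 h (mean ± SD, n = 3). Ube2h, the conjugating enzyme for the complex, stood at 30.8 ± 7.37 times Maea at 72 h and 0.320 ± 0.00302 times at 0 h, and Rmnd5a at 3.97 ± 0.300 times at 72 h and 0.749 ± 0.0345 times at 0 h. Armc8, another subunit, kept a ratio to Maea of 0.260 to 0.308 in all 7 group means. Between the related scaffold subunits, Ranbp10 was at 30.3 ± 8.94 times Ranbp9 at 72 h and 0.435 ± 0.0281 times at 0 h, and between the related RING subunits, Rmnd5a was at 18.0 ± 3.22 times Rmnd5b at 36 h and 1.64 ± 0.0487 times at 0 h. Of the summed TPM of 11 CTLH subunits Ranbp10 took 42.0 ± 2.14% at 72 h, where it ranked first, and 3.80 ± 0.164% at 0 h, and Maea took 1.00 ± 0.168% at 72 h and 11.5 ± 0.573% at 0 h. Wdr26, a subunit with a known part in nuclear condensation of erythroblasts, ranked first up to 48 h, with 45.5 ± 1.92% at 36 h and 24.9 ± 0.337% at 0 h.

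Of the 8 other subunits 5 were higher and 3 lower at 36 h against 24 h, with a median of 0.43. Ypel5 rose by 2.56 ± 0.11 and Wdr26 by 1.93 ± 0.11, Wdr26 at 0.05 on log2(TPM + 1) and not called there. Gid4, the receptor for proline-ended substrates, fell by 1.21 ± 0.08 and Rmnd5b fell by 0.86 ± 0.14. On log2(TPM + 1) 1 of the 8 was higher and 6 were lower.

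**Figure D4:**
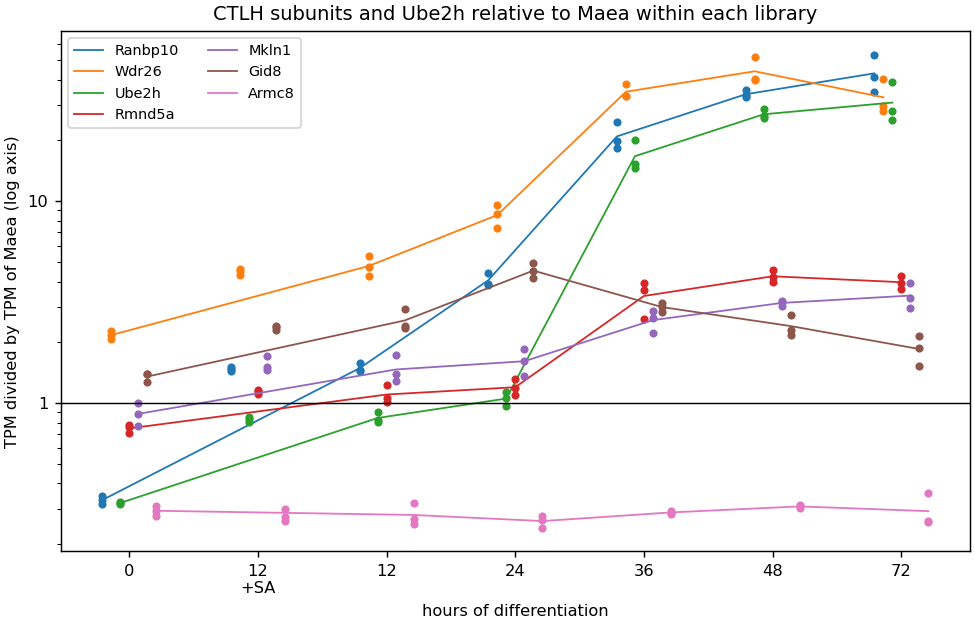
TPM of CTLH subunits and of Ube2h divided by the TPM of Maea in the same library, on a log axis over hours of differentiation (points, 3 libraries a group; lines join group means of the time course; libraries with SA stand to the left of the other 12 h libraries and are not joined). Ranbp10, Wdr26 and Ube2h rise by more than 10 times against Maea, Rmnd5a and Mkln1 rise by less, and Armc8 stays between 0.260 and 0.308 in its group means.

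The TRIM ligases differed in timing. Trim10 (ENSMUSG00000073400.6, chromosome 17, 36869574 to 36877833, plus strand) rose in TPM at each step up to 36 h. It had 28.1, 27.3 and 28.1 TPM at 0 h, 109, 112 and 120.4 TPM at 12 h, 209, 211 and 207 TPM at 24 h and 251, 279 and 298 TPM at 36 h. The 4 groups did not overlap. It then had 146, 144 and 246 TPM at 48 h and 87.3, 74.6 and 137 TPM at 72 h. Trim10 rose by 2.08 ± 0.13 at 12 h against 0 h (adjusted p = 3.99e-11), 1.20 ± 0.13 at 24 h against 12 h (adjusted p = 3.06e-07) and 2.496 ± 0.13 at 36 h against 24 h (adjusted p = 9.49e-13), the last at 0.39 on log2(TPM + 1) and not called there (adjusted p = 0.0649).

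Trim58 dipped before it rose. It (ENSMUSG00000037124.6, chromosome 11, 58640465 to 58652404, plus strand) had 7.83, 7.28 and 8.68 TPM at 0 h, 3.47, 2.07 and 3.34 TPM at 12 h and 4.43, 3.52 and 5.19 TPM at 24 h, from 93 to 435 estimated counts a library. All 12 h libraries lay below all 0 h libraries. It had 18.3, 19.4 and 18.7 TPM at 36 h, 15.3, 13.2 and 23.7 TPM at 48 h and 10.4, 8.26 and 13.6 TPM at 72 h. Trim58 was the only one of the 10 called lower at 12 h against 0 h, by a log2 value of -1.39 ± 0.17 (adjusted p = 8.93e-07), with -1.45 on total counts and -1.19 on log2(TPM + 1). With total counts, Ube2o was called lower as well, and with the size factors of DESeq2 Maea was. Trim58 then rose by 0.84 ± 0.18 at 24 h against 12 h (adjusted p = 7.61e-04) and by 4.18 ± 0.17 at 36 h against 24 h (adjusted p = 2.29e-14). Its level at 72 h was 4.22 ± 0.17 above that at 0 h (adjusted p = 1.15e-15), and on log2(TPM + 1) the value of 0.37 did not pass (adjusted p = 0.0621).

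Trim10 was at 3.52 ± 0.262 times the TPM of Trim58 at 0 h, 40.5 ± 12.0 times at 12 h, 49.0 ± 10.1 times at 24 h, 14.7 ± 1.17 times at 36 h and 9.16 ± 0.841 times at 72 h. Of the summed TPM of 67 TRIM genes Trim10 took 2.76 ± 0.0553% at 0 h, 23.0 ± 0.965% at 24 h and 42.5 ± 0.659% at 36 h, and ranked first from 24 h on. Trim28, a corepressor of zinc finger proteins, held 0.807 ± 0.146% at 36 h and 20.8 ± 0.237% at 0 h, when it led the family. Of 65 other TRIM genes 45 were tested, and at 36 h against 24 h 25 were higher and 9 lower with a median of 1.07. On total counts 17 were higher and 17 lower and on log2(TPM + 1) 3 were higher and 20 lower of 29. Among those averaging 100 counts or more the largest changes were Trim69 at 4.92 ± 0.95 and Trim30a at 4.79 ± 0.61, both under 1 TPM and not called on log2(TPM + 1), and Trim27 at -1.65 ± 0.13 and Trim35 at -1.64 ± 0.10, both lower on all scales.

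Rnf123 peaked in TPM at 24 h and fell at each later time, while on the TMM scale it peaked at 36 h. The gene (ENSMUSG00000041528.15, chromosome 9, 108051534 to 108083346, minus strand) had 43.7, 37.4 and 41.8 TPM at 0 h, 148, 153 and 136 TPM at 12 h and 287, 266 and 251 TPM at 24 h. It had 87.4, 76.3 and 106 TPM at 36 h, 31.9, 33.8 and 55.8 TPM at 48 h and 10.6, 6.52 and 15.0 TPM at 72 h. Both the rise and the later fall in TPM left neighbouring groups apart in every library. Rnf123 rose by 1.94 ± 0.14 at 12 h against 0 h (adjusted p = 2.80e-10) and by 1.22 ± 0.14 at 24 h against 12 h (adjusted p = 6.10e-07). At 36 h against 24 h it was 0.42 ± 0.13 higher on the TMM scale (adjusted p = 0.00808), with -0.57 on total counts and -1.58 on log2(TPM + 1), both called lower, and without replicate 3 at 36 h the TMM call was lost (adjusted p = 0.0585). It was lower by all 3 scales at 72 h against 48 h, at -1.34 ± 0.14 (adjusted p = 5.09e-08), and at 48 h against 36 h, at -0.45 ± 0.13 (adjusted p = 0.00803), although the TMM call at that step was lost without replicate 1 at 48 h (adjusted p = 0.0525) and with the size factors of DESeq2 (adjusted p = 0.0561). Over the whole course Rnf123 was 1.78 ± 0.14 higher at 72 h than at 0 h on the TMM scale, at -0.05 on total counts and at -1.90 on log2(TPM + 1). The gene overlaps Gm20529, Mir7088, Gmppb, Amigo3 and Mst1 on the opposite strand, of which the last 3 reached at most 23.1, 0.929 and 6.51 TPM, and since the sources used here do not say that counting used strand, reads in the shared stretches cannot be told apart. The same holds for Gm11742 over Ube2o and Gm15849 over Tmcc2. Gm44130 lies on the same strand as Rmnd5a, where strand would not separate them.

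The other subunit of its ligase, Ubac1, also peaked in TPM at 24 h, with 66.6 TPM at 0 h, 329 TPM at 24 h, 77.3 TPM at 36 h and 3.59 TPM at 72 h as group means. On the TMM scale Ubac1 was at -0.06 ± 0.16 at 36 h against 24 h, not called. It was lower at 72 h than at 0 h, at -0.59 ± 0.17 (adjusted p = 0.00248), and Rnf123 was higher in both. Rnf123 stood at 0.619 ± 0.0948 times Ubac1 at 0 h, 0.815 ± 0.0740 times at 24 h and 2.98 ± 0.362 times at 72 h. Cdkn1b, which codes for p27, the protein the KPC ligase marks in cycling cells, averaged 106 TPM at 36 h and 39.5 TPM at 24 h, a rise of 3.55 ± 0.13 (adjusted p = 8.57e-15) that was also called on the other 2 scales. Nfkb1, whose precursor protein RNF123 is known to process in human cells, averaged 1.11 TPM at 36 h and 9.08 TPM at 24 h and fell by 0.96 ± 0.14.

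Ypel4 and Tmcc2 had the largest changes of the set over the course. Ypel4 (ENSMUSG00000034059.13, chromosome 2, 84734058 to 84738655, plus strand) was near the limit of detection at 0 h, with 0.0824, 0.110 and 0.141 TPM from 3, 3 and 5 estimated counts. It had 2.08, 2.23 and 2.60 TPM at 12 h, 6.61, 7.14 and 6.22 TPM at 24 h and 45.7, 54.7 and 53.9 TPM at 36 h. The groups up to 36 h did not overlap. It had 36.2, 42.6 and 64.1 TPM at 48 h and 26.1, 25.1 and 52.5 TPM at 72 h. Ypel4 rose by 4.39 ± 0.43 at 12 h against 0 h (adjusted p = 3.48e-08), 1.85 ± 0.22 at 24 h against 12 h (adjusted p = 1.57e-06) and 5.00 ± 0.21 at 36 h against 24 h (adjusted p = 3.25e-14). The fitted change of 12.03 ± 0.33 at 72 h against 0 h rests on those few counts at 0 h. All 4 other Yippee genes were called higher at 36 h against 24 h, led by Ypel3 at 5.04 ± 0.17, though Ypel1 was called lower on log2(TPM + 1), at -0.44, and Ypel2 was too low to be tested there. Of the summed TPM of the 5 genes Ypel4 took 0.630 ± 0.119% at 0 h, 6.96 ± 0.532% at 24 h and 15.6 ± 1.72% at 36 h, while Ypel3 took 74.8 ± 1.27% at 72 h and Ypel5 led up to 24 h.

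Tmcc2 became one of the most abundant transcripts of the cells. It (ENSMUSG00000042066.15, chromosome 1, 132356315 to 132391281, minus strand) had 12.1, 18.3 and 15.0 TPM at 0 h, 127, 115 and 121 TPM at 12 h and 119.8, 114 and 127 TPM at 24 h. It had 1733, 2362 and 1976 TPM at 36 h, 1813, 2097 and 3418 TPM at 48 h and 1739, 1491 and 2612 TPM at 72 h. In TPM the 12 and 24 h libraries overlapped, as did those from 36 h on, with no overlap between these sets or with 0 h. Its rank by TPM was 11 to 14 at 72 h, where it took 1.55 ± 0.118% of all estimated counts, and 5955 to 6940 at 0 h. Tmcc2 rose by 2.95 ± 0.18 at 12 h against 0 h (adjusted p = 2.33e-11) and by 6.11 ± 0.21 at 36 h against 24 h (adjusted p = 2.21e-15), which was larger than the change of 99.5% of tested genes. The 36 h change was 5.10 on total counts and 4.05 on log2(TPM + 1). At 48 h against 36 h Tmcc2 was higher by 0.88 ± 0.17 (adjusted p = 1.70e-04). It was at 0.58 on total counts, also called, and at 0.23 on log2(TPM + 1), not called. At 72 h against 48 h the value of 0.44 ± 0.17 passed (adjusted p = 0.0278), but not without replicate 1 at 48 h or replicate 2 or 3 at 72 h, where the adjusted p was 0.135, 0.134 and 0.116. In the TMCC family of 3 genes Tmcc2 held 30.6 ± 4.56% of TPM at 0 h, 92.0 ± 0.493% at 24 h and 99.8 ± 0.0699% at 36 h.

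Named substrates and partners of these enzymes did not share a direction. Of 15 listed 13 were tested, Prkaa2 and Dync1i1 being left out, and at 36 h against 24 h 7 were higher and 3 lower with a median of 0.27, while on log2(TPM + 1) 4 were higher and 9 lower. The 4 higher on every scale were Cdkn1b, Hbp1, a transcription factor marked by the CTLH complex, at 3.16 ± 0.12, and the alpha globin genes Hba-a2 at 3.76 ± 0.33 and Hba-a1 at 2.16 ± 0.37, near-identical copies between which reads may be split, whose unassembled chains UBE2O marks. Smad6, which UBE2O modifies, was lower at -1.06 ± 0.20 and Lmnb2, a nuclear lamin gene, at -2.46 ± 0.13. Of the dynein genes behind the complex that TRIM58 acts on, Dync1i2 was at 0.73 ± 0.08, called higher on the TMM scale and lower on log2(TPM + 1), and Dync1h1 and Dctn1 did not pass, at -0.17 ± 0.09 and 0.16 ± 0.09. Hmgcs1, a sterol synthesis enzyme marked by the CTLH complex, was at 0.79 ± 0.15 and Prkaa1, a subunit of AMP-activated kinase, at 0.27 ± 0.10, both lower on log2(TPM + 1).

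Other genes of late maturation and enucleation gave 11 higher and 3 lower of 15 at 36 h against 24 h, with a median of 1.92, and 4 higher and 7 lower on log2(TPM + 1). Xpo7, a nuclear export receptor needed for nuclear condensation in mouse erythroblasts, rose by 6.26 ± 0.13, and the autophagy kinase gene Ulk1 by 4.19 ± 0.17. Hdac2, a histone deacetylase, fell by 1.39 ± 0.11 and Plek2, a membrane-associated protein of erythroblasts, by 0.31 ± 0.12. Of the TMCC genes 1 of the 2 other genes was higher with the other not called, and both were lower on log2(TPM + 1). Cullins and their RING subunits, the scaffolds of another class of ligases, gave 4 higher and 3 lower of 9 on the TMM scale, 1 and 7 on total counts and 0 and 9 on log2(TPM + 1). The NEDD4 family gave 2 higher and 2 lower of 7 on the TMM scale, 1 and 5 on total counts and 0 and 6 on log2(TPM + 1).

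Across the 21 libraries, which share 1 time course, Ube2o, Ube2h, Ypel4 and Tmcc2 had Pearson correlations of 0.946 to 0.996 with each other on log2 normalized counts-per-million. Rmnd5a had 0.966 to 0.995 with these 4 genes. Of the 45 pairs Ranbp10 with Ypel4 had the highest value, 0.997, and Maea with Ranbp10 the lowest, -0.781. The genes most like each of the set on that scale, sought among tested genes averaging 100 counts or more, were Fam126a and Tbcel for Ube2o (r = 0.999 and 0.998), Adipor1 and Abhd4 for Ube2h (0.999 and 0.999), Tcp11l2 and Yipf4 for Tmcc2 (0.996 and 0.996) and Ypel5 and Ranbp10 for Ypel4 (0.998 and 0.997). For Trim10 they were March2 and Fech (0.998 and 0.996), for Trim58 Ranbp2 and Zfp874b (0.993 and 0.991), for Ranbp10 Yod1 and Ypel4 (0.997 and 0.997) and for Rmnd5a Tax1bp1 and Pink1 (0.997 and 0.997). Rnf123 had Gfap and Agfg1 (0.987 and 0.986), and Maea had the weakest, Tmed9 and Mcat (0.886 and 0.880). On log2(TPM + 1) only Adipor1, Tcp11l2, March2 and Zfp874b stayed among the nearest 2 genes. There Rmnd5a had -0.771 to -0.587 with Ube2o, Ube2h, Ypel4 and Tmcc2.

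No gene of the set passed the test for succinyl acetone at 12 h. Of the 10 genes 0 were called higher and 0 lower at 12 h with SA against 12 h without it, and the counts were also 0 by an unadjusted p under 0.05, by DESeq2 and by limma on log2(TPM + 1), where 0.0162% of all tested genes were higher and 0.364% lower. Ypel4 had 1.95, 1.67 and 1.42 TPM with SA, against 2.08, 2.23 and 2.60 TPM without it, from 49 to 90 estimated counts a library, a change of -0.48 ± 0.25 (adjusted p = 0.895). Ube2o had 17.3, 16.9 and 15.6 TPM with SA, against 19.96, 19.4 and 18.5 TPM without it, a change of -0.24 ± 0.17 (adjusted p = 0.956). Rnf123 had 128, 136 and 118 TPM with SA, against 148, 153 and 136 TPM without it, a change of -0.22 ± 0.13 (adjusted p = 0.941). For each of these 3 genes every library with SA lay below every library without it, for Rnf123 by a margin under 1 TPM. Ranbp10 parted the other way in TPM, at 77.5 to 81.0 with SA and 76.8 to 77.4 without it, though its normalized counts overlapped. How often all tested genes part in this way was not counted. In a fit of the 6 libraries at 12 h alone Ube2o and Rnf123 were called lower (adjusted p = 0.0317 and 0.0179), where 465 of all tested genes were called in either direction. Over 16 alternatives the adjusted p of Ube2o and of Rnf123 ran from that value to 1.00. The other 7 genes lay between -0.15 and 0.05, and a miss of the threshold does not show that SA left them alike.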

How the data were processed

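RNA-seq of 21 MEDEP libraries was taken from 2 tables. The authors deposited estimated counts per gene, of which 78.5% were whole and which were rounded here, and TPM values that have the same sum in every library. The submitters' processing notes name kallisto, STAR 2.5.3a and DESeq2 with the builds GRCm38.p5 and mm10, and their roles are not given in the sources used here. Libraries held 16.7 to 39.3 M estimated counts, so that low genes such as Ypel4 at 0 h carry the widest error. Genes passing filterByExpr at a minimum count of 10, 12360 in all, were fitted with edgeR 4.0.16 (TMM scaling, quasi-likelihood test, all 21 libraries in 1 fit, Benjamini-Hochberg adjustment, threshold 0.05) in R 4.3.3. TPM were tested as log2(TPM + 1) with limma 3.58.1. DESeq2 1.42.0, other scalings and filters, a replicate block and leaving out each library were alternatives. The edgeR step was tried on simulated counts with known folds planted in the SA group only. All groups were otherwise drawn from the same average profile, so this trial does not bear on the choice of scale. Replicate numbers paired the samples by correlated deviations, every pair over 0.1, for 24 h against 12 h (0.363 to 0.524), 48 h against 36 h (0.151 to 0.486), 72 h against 48 h (0.362 to 0.395) and SA (0.390 to 0.479), as a hint from the data. Gene positions are those of GENCODE M21 on GRCm38. The genes described, the lists and the rules were chosen with earlier results of these data known. Named list genes are the called ones with the largest change in each direction among those with a mean count of at least 100, up to 2 each way.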

Additional observations from a re-analysis of the deposited data

How the results depend on the processing

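Of 70 results (10 genes in 7 comparisons), 70 kept their call (higher, lower or not called) with globin genes left out of library size. The call was kept by 68 without the count filter, 65 with the size factors of DESeq2 and 66 with its Wald test. It was kept by 63 with the compared groups alone, 55 on total counts and 42 on log2(TPM + 1). A change of sign was counted as a reversal only for genes called in either setting. Genes called in neither could change sign, as Ube2h did at 24 h against 12 h, at 0.28 on TMM and -0.017 on log2(TPM + 1). The replicate block kept 69 and added Rmnd5a at 48 h against 36 h (0.26, adjusted p = 0.0424), and it gave 84 genes called for SA against 47 without it. The scale gave the reversals. On total counts Rnf123 was at -0.57 (36 h against 24 h) and -0.052 (72 h against 0 h), and Trim10 at -0.31 (48 h against 36 h). On log2(TPM + 1), on the same values for all genes above 0 in 3 libraries, and on log2(TPM + 0.1), the values were, at 36 h against 24 h, Rnf123 -1.58, -1.58 and -1.59 and Rmnd5a -0.49, -0.49 and -0.50. At 48 h against 36 h they were Ube2h -0.074 on all 3, Ranbp10 -0.074, -0.074 and -0.075, Trim58 -0.15, -0.15 and -0.16, Ypel4 -0.15, -0.15 and -0.15, Rmnd5a -0.42, -0.42 and -0.43 and Trim10 -0.67 on all 3. For 72 h against 48 h they were Ube2o -0.73, -0.73 and -0.74, Ranbp10 -0.48 on all 3, Trim58 -0.63, -0.63 and -0.67, Tmcc2 -0.31 on all 3, and Ypel4 -0.49 with a pseudocount of 1. For 72 h against 0 h they were Rnf123 -1.90, -1.90 and -2.001 and Rmnd5a -1.66, -1.66 and -1.72.

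Counts of the 10 genes moved as follows. At 12 h against 0 h, 2 were lower with the size factors of DESeq2, its Wald test or total counts and 3 with the compared groups alone, against 1. At 24 h against 12 h, 1 was lower on total counts and on log2(TPM + 1), against 0. At 36 h against 24 h, 2 were lower on total counts and 3 on each TPM setting, against 0, and 5 were higher on log2(TPM + 0.1) and without the TPM filter, against 9. At 48 h against 36 h, 0 were lower with the size factors of DESeq2 or a fold of at least 2, 3 on total counts and 4 on each TPM setting, against 1, and 0 were higher on each TPM setting or with that fold, against 6. For 72 h against 48 h, 0 were higher on total counts, without the count filter, on each TPM setting or with that fold and 1 with the compared groups alone, against 2, and 5 were lower on total counts, 9 on log2(TPM + 1) and 8 on the other TPM settings, against 1. For 72 h against 0 h, 0 were lower with the size factors of DESeq2, its Wald test or that fold and 3 on each TPM setting, against 1. For SA, 2 were lower with the compared groups alone, against 0. Apart from scale and sample choice, the cause was not tested.

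Of all genes, a fold of at least 2 left 2193 calls at 12 h, 1165 at 24 h, 5089 at 36 h, 1637 at 48 h and 3152 at 72 h, each against the time before, and log2(TPM + 0.1) gave 3724 at 12 h. For SA the calls were 74 without the count filter, 465 with the compared groups alone, 150 by the Wald test, 16 on log2(TPM + 0.1), 114 without the TPM filter and 27 with that fold, and 11 to 31 leaving out 1 library. Leaving out 1 library, 404 of the single-gene results were unchanged, 12 lost and 4 gained a call. The count higher was then 0 to 4 at 72 h against 48 h, 5 to 7 at 48 h and 8 to 9 at 36 h, and the count lower at 48 h 0 to 1. Without replicate 1 at 48 h or replicate 2 or 3 at 72 h the count higher at 72 h was 0, without replicate 3 at 48 h it was 1 and without replicate 1 at 72 h it was 4.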
